A study of Homo sapiens with 8 samples.

Results

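The LSD1-bound regions of human chromosome 19 were examined outside its zinc finger gene clusters. Members were chosen by position. All LSD1 summits on chr19 (GRCh37, hg19) in 4 deposited lists were taken, the zinc finger clusters at 19.8 to 24.3 Mb and at 52.3 to 53.9 Mb were left out, and neighbouring summits at most 500 bp apart were joined into 1 region. This gave 2380 of the 68148 regions of chromosomes 1 to 22 and X, made of 7024 of 201525 summits, over 53.0 Mb of the chromosome. The left-out clusters held a further 88 regions. The chromosome was selected on these same data, with its density of regions and its few KO1-only regions already known, so its contrasts with other chromosomes are given as descriptions with no test.

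The 4 LSD1 lists came from CUT&RUN in MDA-MB-231, a cell line of human breast cancer, either parental or carrying the CRISPR/Cas9 knockout RCOR2-KO1 (KO1 below), with 2 libraries per genotype. In CUT&RUN, an antibody bound to its target in permeabilized cells tethers a nuclease that releases the DNA beneath it. The 4 normal rabbit IgG libraries served the authors as input and enter no value here. The methods describe mixing of selected knockout clones in a paragraph on several cell lines, and do not spell out whether this covers the cells used here. The labels give no other treatment. Nothing in them says that the 2 libraries of a genotype came from separate cultures, so p-values measure only the spread between these libraries.

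LSD1 (KDM1A) is a histone demethylase that removes methyl groups from lysine 4 of histone H3, a mark of active promoters and enhancers. It works inside CoREST complexes with histone deacetylases, and RCOR2 is one of the CoREST scaffold proteins that hold LSD1 on nucleosomes. Chromosome 19 is the most gene-dense human chromosome and is rich in housekeeping promoters, Alu repeats and tandem families of KRAB zinc finger genes. No annotation of hg19 was used here, so regions are given by coordinates without gene names.

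Each deposited summit is the single base of highest signal in a peak called in 1 library, with a −log10 value of the peak caller's p or q. That value depends on sequencing depth, which is unknown, so strength is given as a percentile within the summit's own list, where 100 is the strongest. The lists held 47354 and 54467 summits in parental libraries 1 and 2, and 49586 and 50119 in KO1 libraries 1 and 2. Parental library 2 was the longest, and it alone held 270 of the 551 chr19 regions found in a single list.

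Chromosome 19 carried LSD1 regions more densely than any other chromosome. It held 44.9 regions per Mb, against 22.1 per Mb over the other 22 chromosomes pooled, 35.8 on chr17, which ranked next, and 29.7 on chr20. Counting only regions found in all 4 lists gave 23.9 per Mb on chr19 and 11.6 per Mb elsewhere. The ratio was similar in every library, although the parental ones stood higher: summits were 2.12 and 2.13 times as dense on chr19 as elsewhere in the parental libraries, and 1.94 and 1.93 times in the KO1 libraries. Neighbouring regions were separated by a median of 9.36 kb on chr19 and 13.5 kb elsewhere.

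**Figure D1:**
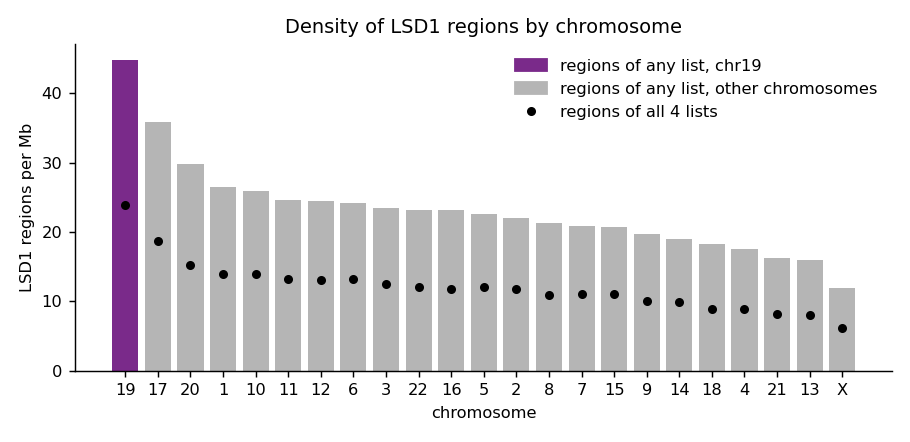
LSD1 regions per Mb (y axis) on each chromosome (x axis, ordered by density), with bars for regions of any list and points for regions found in all 4 lists. Chr19, drawn without its zinc finger clusters, stood highest on both measures, with 44.9 and 23.9 regions per Mb.

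The chromosome was dense along most of its length and not at a single site. Of 52 bins of 1 Mb that held a chr19 region, the median bin held 46 regions, with a range of 1 to 96, and 17 bins (32.7%) held 60 or more. On chr17 the median bin held 34 regions, and on all other chromosomes 21, where 4.42% of bins held 60 or more. The fullest chr19 bins were at 49 to 50 Mb with 96 regions, at 17 to 18 Mb with 92 and at 47 to 48 Mb with 89. These bins were not sites of strong binding alone, since the median region in them had a mean percentile of 39.6, 45.6 and 47.7.

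The chromosome differed in density on either side of its longest stretch without a member. Before it, the first 19.8 Mb carried 1217 regions at 61.5 per Mb. After it, 1163 regions lay at 39.8 per Mb. The stretch itself ran 8.51 Mb, from the region ending at 19779672 to the one starting at 28284735, and it includes both the first left-out cluster and the centromere. Between neighbouring members with no cluster between them, the longest stretch without a region was 1.13 Mb, between 31705554 and 32837148. The part of the 8.51 Mb stretch beyond the first cluster was longer, with no region between 24269959 and 28284735. The region next to the first cluster on the near side (chr19:19779612-19779672) had a mean percentile of 49.5, and the first region left out (chr19:19843926-19843975) had 49.3. On the far side of that cluster the last region left out stood at 55.8, and the first one kept (chr19:28284735-28284792), found in all 4 lists, at 95.3. At the second cluster the last region kept before it (27.2, 3 lists) and the first kept after it (14.4, 2 lists) were weaker than the regions left out beside them (42.4 and 59.3).

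Chromosome 19 held more genes per Mb than any other chromosome, and fewer LSD1 regions per gene. RefSeq lists 1451 protein-coding genes on chr19, or 24.5 per Mb of the whole chromosome, against 14.4 on chr17 and 6.22 over the other chromosomes pooled. With the clusters included, chr19 held 1.70 LSD1 regions per protein-coding gene, the lowest of the 23 chromosomes, while the others ranged from 2.18 to 5.44. Across the 23 chromosomes, regions per Mb rose with genes per Mb (Spearman's rho = 0.733, Pearson's r = 0.867, and 0.695 and 0.787 without chr19). These points share the same 4 libraries and differ in length and base composition, so the correlation is a description. The median GC content of the RefSeq promoter windows of chr19, 63.3% over 1548 windows, equalled that of chr15 and lay below that of 5 other chromosomes among those with windows in the table.

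Summits on chr19 were also somewhat stronger than elsewhere. Their median percentile was 52.8 and 52.7 in parental libraries 1 and 2, and 53.8 and 55.5 in KO1 libraries 1 and 2, which was 2.85, 2.78, 3.90 and 5.33 points above the other chromosomes. Both KO1 libraries stood above both parental ones. The median was the highest of the 23 chromosomes in both KO1 lists, and ranked 3 and 4 in the parental lists. Parental cells averaged 52.8 ± 0.117 and KO1 cells 54.6 ± 1.19 (mean ± SD, n = 2 libraries each). The difference of 1.84 points gave p = 0.333 in the two-sided exact permutation test, which is as low as p can go with 2 libraries per genotype.

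An excess was also seen in the upper part of the lists. Chr19 contributed 11.9% and 12.3% of its parental summits and 12.2% and 12.4% of its KO1 summits to the upper 10% of each list, 1.92 to 2.53 points more than the other chromosomes did. By this share chr19 ranked 4, 2, 3 and 3 of the 23 chromosomes, with chr10 or chr20 the highest. Here the genotypes overlapped (12.1 ± 0.310% in parental and 12.3 ± 0.181% in KO1, exact permutation test, p = 0.667). Among the 100 strongest summits of a list, 4, 5, 4 and 4 were on chr19, close to its share of 3.32% to 3.64% of each whole list. When each list was divided into deciles of strength, the share of summits on chr19 was highest in the strongest 2, where it lay between 3.97% and 4.48%.

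**Figure D2:**
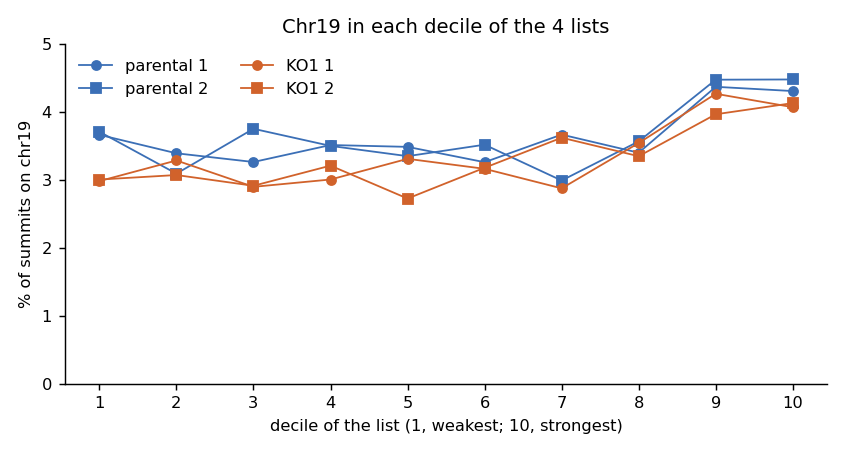
Share of all summits that lie on chr19 (y axis, percent) in each decile of the 4 lists (x axis, 1 the weakest and 10 the strongest), with 1 line per library. All 4 lines were highest in the strongest 2 deciles, and in 7 of the 10 deciles both KO1 libraries lay below both parental ones.

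The strongest shared regions of chr19 stood near the top of every list. At chr19:45091836-45091918 the percentile was 99.9 in parental library 1, 99.9 in parental library 2, 99.99 in KO1 library 1 and 99.9 in KO1 library 2. The other 4 of the 5 strongest were chr19:59084841-59084854, chr19:13147645-13147745, chr19:41221629-41221791 and chr19:16272243-16272448, and their lowest percentile in any library was 98.8. They were chosen for a high mean over the 4 libraries, so their likeness between genotypes is no finding.

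Fewer of the KO1 summits than of the parental summits lay on chr19. The chromosome held 1720 and 1984 summits in parental libraries 1 and 2, and 1657 and 1663 in KO1 libraries 1 and 2. As a share of the list this was 3.63% and 3.64% in the parental libraries and 3.34% and 3.32% in the KO1 libraries, so the genotypes did not overlap. The mean fell from 3.64 ± 0.00737% to 3.33 ± 0.0167% (n = 2 libraries each, difference −0.308 points, exact permutation test, p = 0.333). The few KO1-only regions of chr19 enter this share and were known when the chromosome was chosen. The difference and its p-value are therefore no independent support. Relative to the parental share, the KO1 share was 0.915 times as large, and only chr20, at 0.908 times, was lower among the 23 chromosomes. Both KO1 lists lay below both parental lists on 9 chromosomes, above them on 8, and overlapped with them on 6.

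The gap differed between deciles of strength, without a steady trend. In the weakest decile of the lists chr19 held 3.66% and 3.71% of parental summits but 2.98% and 3.01% of KO1 summits. In the next decile the genotypes overlapped, with 3.39% and 3.09% in parental and 3.29% and 3.07% in KO1 libraries. In the strongest decile the values were 4.31% and 4.48%, against 4.07% and 4.13%. No decile had both KO1 libraries above both parental ones. Across the 23 chromosomes the ratio of KO1 to parental share fell as gene density rose (rho = −0.534, r = −0.542, n = 23, and −0.473 and −0.508 without chr19), a description over points that come from the same 4 libraries.

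Most chr19 regions recurred between libraries as often as those elsewhere. Of the 2380 regions, 1268 (53.3%) were found in all 4 lists, 279 in 3, 282 in 2 and 551 (23.2%) in 1, and on the other chromosomes 52.6% were in all 4 and 21.7% in 1. The summits of a region shared by all 4 lists spanned a median of 109 bp. The parental libraries shared 71.2% of the chr19 regions found in either of them, the KO1 libraries shared 74.9%, and the 4 pairings across genotypes shared 68.1% to 71.2%. By this share the parental pair on chr19 equalled parental library 1 and KO1 library 1 (71.2% each). On the other chromosomes the parental pair shared 72.5% and the pairings across genotypes 67.8% to 69.0%. This share also depends on list length. Of the chr19 regions of parental library 1, 89.5% were in parental library 2, the longest list, 81.6% in KO1 library 1 and 81.5% in KO1 library 2. No chr19 region held more than 4 summits or 2 of the same list.

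Regions of KO1 cells alone were scarcer on chr19 than on any other chromosome, while regions of parental cells alone were not. On chr19, 37 regions were found in both KO1 lists and no parental list, 2.84% of the 1305 regions that were either of this kind or in all 4 lists, against 6.44% over the whole series and 6.58% on the other chromosomes. On chr17 the share was 4.10%, on chr20 4.58% and on chr22 4.62%. In the opposite direction, 110 chr19 regions were found in both parental lists and no KO1 list, 7.98% of 1378, close to 7.45% over the whole series and 16th from the lowest among the chromosomes. The KO1-only share moved with the length of the lists, and the parental-only share barely did. With all lists shortened to that of parental library 1, KO1-only regions made up 4.04% on chr19 and 7.25% elsewhere, and parental-only regions 7.84% and 7.36%. With a library left out, presence in a single list suffices for its genotype, and both shares were larger. Without parental library 1 or 2 the KO1-only share on chr19 was 4.75% or 9.02% (elsewhere 9.07% or 13.5%), and without KO1 library 1 or 2 it was 9.40% or 8.65% (elsewhere 13.9% and 13.9%). The parental-only share on chr19 was 22.3% without parental library 1, 14.6% without parental library 2, 12.8% without KO1 library 1 and 12.6% without KO1 library 2, and elsewhere 18.9%, 12.7%, 11.3% and 12.1%.

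**Figure D3:**
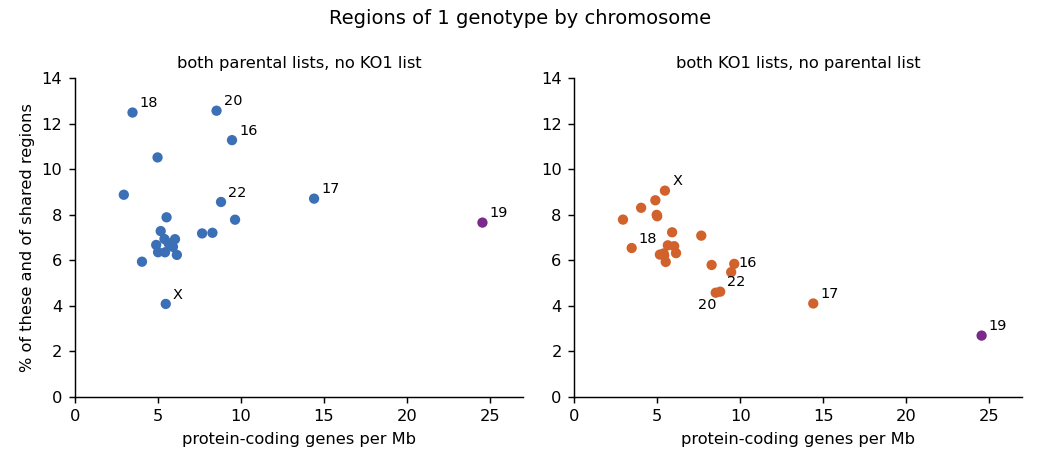
Regions found in both lists of 1 genotype and in neither of the other (y axis, percent of these and of the regions of all 4 lists) against RefSeq protein-coding genes per Mb (x axis) for 23 chromosomes, with parental-only regions on the left and KO1-only regions on the right. Chr19, drawn here with its zinc finger clusters, lay lowest on the right at 2.69% and within the range of the other chromosomes on the left at 7.66%.

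The KO1-only share fell with gene density and with the density of LSD1 regions across chromosomes. Over the 23 chromosomes, genes per Mb and the KO1-only share had rho = −0.758 and r = −0.786, and rho stayed at −0.723 without chr19 and at −0.682 without both chr17 and chr19. For the parental-only share the values were rho = 0.220 and r = 0.0923. LSD1 regions per Mb and the KO1-only share had rho = −0.769 and r = −0.847. All points share the same 4 libraries, and gene-dense chromosomes were also denser in LSD1 regions, so these are descriptions of the lists.

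Within chr19, the scarcity of KO1-only regions was most marked where LSD1 regions were sparse. In the 17 bins of 1 Mb with fewer than 20 shared regions, 1 of 141 regions was KO1-only (0.709%), against 8.71% in such bins of the other chromosomes. In the 35 bins with 20 or more, 3.09% were KO1-only, against 4.50% elsewhere. The share was not lower on chr19 in every class: it was 1.98% against 5.03% in bins with 20 to 29 shared regions, 4.09% against 3.93% in those with 30 to 39, and 2.80% against 3.20% in those with at least 40. Parental-only regions made up 10.8% in the sparse chr19 bins and 8.37% in sparse bins elsewhere.

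Along the chromosome, regions of 1 genotype were more frequent in the first part. Before the long empty stretch 69 regions (10.1%) were parental-only and 23 (3.59%) KO1-only, and after it 41 (5.92%) and 14 (2.11%). Parental-only regions reached 14.9% in the first 5 Mb (28 regions) and 12.1% between 55 and 60 Mb (11 regions). No KO1-only region lay at 30 to 35 Mb, 50 to 55 Mb or 55 to 60 Mb, which held 33, 70 and 80 regions of all 4 lists. With a KO1-only share of 2.84% over the whole set, few were to be expected in segments of this size. The regions before the stretch were also weaker, with a median mean percentile of 36.1 against 43.0 after it, although the regions found in all 4 lists were not (64.4 before and 64.3 after). The part of strength in this difference was not tested.

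Regions of 1 genotype were mostly weak, and the chr19 deficit of KO1-only regions was largest among the weak ones. Of the 110 parental-only regions 90, and of the 37 KO1-only regions 25, had a mean percentile below 40. Below that value KO1-only regions made up 8.04% on chr19 and 19.1% elsewhere, and parental-only regions 23.9% and 20.7%. From percentile 40 upward, KO1-only regions made up 1.21% on chr19 and 1.64% elsewhere, and parental-only regions 1.996% and 2.15%. Between percentiles 40 and 60 the KO1-only share was 1.39% on chr19 and 2.63% elsewhere. When only the upper 50% of each list was kept and joined anew, it was 4.49% on chr19 and 8.28% elsewhere. In the strongest quintile, 4 KO1-only and 3 parental-only regions remained on chr19, 1.09% and 0.822%, beside 1.07% and 1.13% elsewhere.

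**Figure D4:**
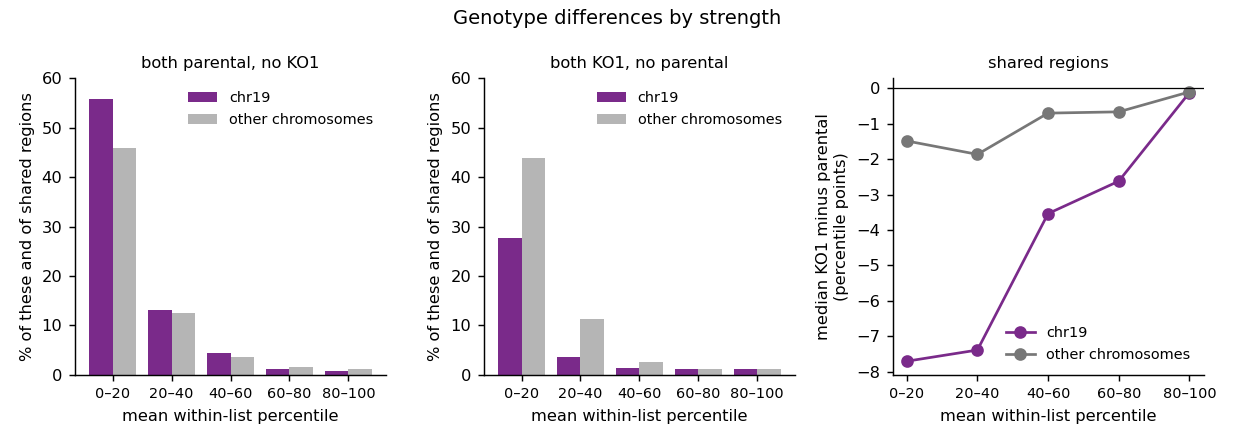
Parental-only regions (left) and KO1-only regions (middle) as a percent of these and of the regions of all 4 lists (y axis), and the median KO1 minus parental percentile of the regions of all 4 lists (right, percentile points), by mean within-list percentile (x axis, 5 classes), for chr19 and for the other chromosomes. KO1-only regions were fewer on chr19 in the weakest classes (27.6% against 43.9%, and 3.56% against 11.2%), and the median difference ran from −7.71 in the weakest to −0.127 in the strongest class on chr19.

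The strongest regions of 1 genotype often faced a region of the other genotype just beyond the joining distance. Of the 5 strongest parental-only regions, the first, chr19:4870307-4870342, had percentiles of 98.2 and 93.5 in parental libraries 1 and 2. The first of the KO1-only regions, chr19:4869715-4869751, had 98.7 and 98.5 in KO1 libraries 1 and 2. The 2 lie 556 bp apart, so summits of the 2 genotypes that are neighbours on the chromosome were counted as separate regions.

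The same held at 2 further sites. At 1.10 Mb the parental-only region chr19:1103337-1103356 (81.4 and 85.5) lay 710 bp from the KO1-only region chr19:1102598-1102627 (79.2 and 92.4). At 48.8 Mb chr19:48829293-48829349 (67.2 and 79.2 in parental cells) lay 525 bp from chr19:48828745-48828768 (89.0 and 83.8 in KO1 cells). A parental summit also lay 550 bp from the KO1-only region chr19:47480238-47480283 (77.3 and 74.9), and a KO1 summit 1078 bp from the parental-only region chr19:1248113-1248195 (93.1 and 91.6).

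Among these 10 regions, the remaining 2 stood away from the other genotype. The parental-only region chr19:55030142-55030143 had percentiles of 71.4 and 80.6, and the nearest KO1 summit was 55074 bp away. The KO1-only region chr19:13945116-13945282 had percentiles of 81.8 and 90.03, and the nearest parental summit was 5156 bp away. These 2 were thus the cases with the largest distance to the other genotype among the strongest regions of 1 genotype.

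Over all regions of 1 genotype, 24 of 110 parental-only (21.8%) and 12 of 37 KO1-only regions (32.4%) had a summit of the other genotype within 2 kb, against 18.7% and 20.97% elsewhere. Above a mean percentile of 50 this was 9 of 13 (69.2%) and 7 of 11 (63.6%), against 52.4% and 62.2% elsewhere. Strong regions of 1 genotype thus often had a near summit of the other genotype on the other chromosomes as well. The joining distance had no natural break at 500 bp: the largest distance joined on chr19 was 499 bp and the smallest kept apart 501 bp, with 119 pairs of neighbouring summits in the last 100 bp below the limit and 92 pairs in the first 100 bp above it. With joining at 250 bp, KO1-only regions made up 4.93% on chr19 and 8.86% elsewhere, and at 1000 bp 2.296% and 5.84%.

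**Figure D5:**
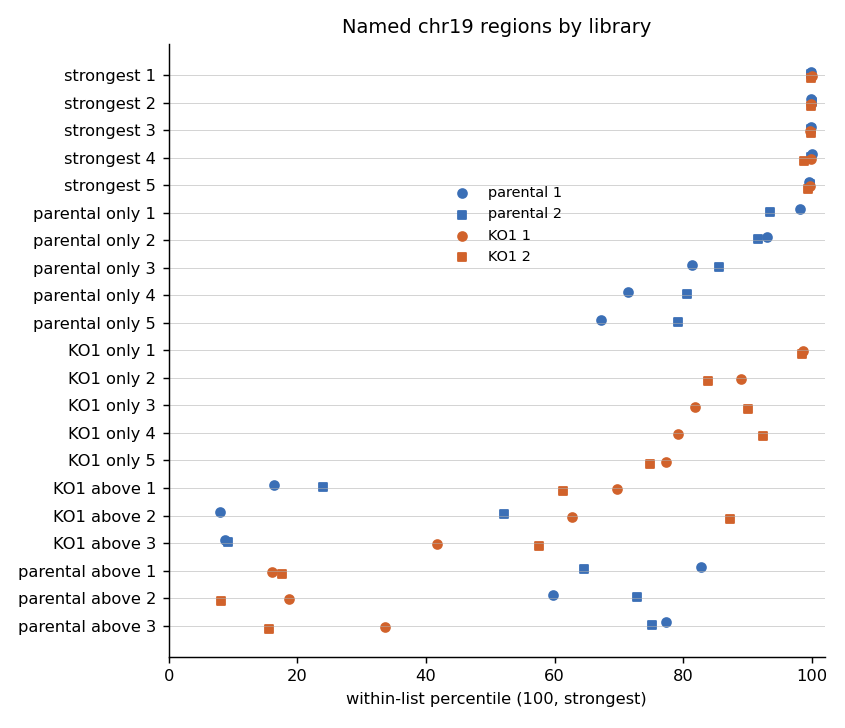
Within-list percentile (x axis, 100 the strongest) in each of the 4 libraries for the 5 strongest shared chr19 regions, the 5 strongest parental-only and KO1-only regions, and the 3 shared regions with the largest difference each way (y axis, each kind numbered in the order of its rule). The strongest shared regions stood at 98.8 or above in every library, whereas the parental libraries stood as far apart as 8.04 and 52.2 at the second of the regions higher in KO1.

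Among the 1268 shared regions, few stood higher in KO1 cells in both libraries. Both KO1 percentiles lay above both parental ones at 166 regions (13.1%, against 19.6% over the whole series). This share was the smallest of any chromosome, but chr16 (13.5%) and chr22 (13.7%) lay close to it. Both parental percentiles lay above both KO1 ones at 322 regions (25.4%, against 22.4%). Several chromosomes had a higher share of this kind, among them chr16 (30.8%) and chr22 (28.3%). The median of the KO1 minus parental percentile was −1.96 points on chr19 and −0.509 elsewhere, and 4 chromosomes had a lower median, of which chr16 was lowest at −4.79.

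The size of this shift depended on parental library 2. The median percentile over the shared regions was 63.5 in parental library 1 and 69.9 in parental library 2, and 63.6 and 63.8 in the KO1 libraries. Parental library 2 stood above the 3 others, and the genotypes overlapped (66.7 ± 4.50 and 63.7 ± 0.171, n = 2 libraries each, exact permutation test, p = 1). Without parental library 2 the median difference was −0.362, and without parental library 1 it was −4.39. Relative to the other chromosomes the difference was −1.45 points with all 4 libraries, and −1.34 to −2.07 with any 1 library left out.

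The 4 pairs of libraries gave the same order relative to the rest of the genome. The median difference on chr19 was −0.122 for KO1 library 1 and 0.0861 for KO1 library 2 against parental library 1, and −3.68 and −4.26 against parental library 2. Each of these lay below the same pair's median on the other chromosomes, by −1.22 to −2.09 points. This order was not particular to chr19. All 4 pairs also lay lower on chr22, by −1.31 to −2.80 points, and on chr17, by −0.791 to −1.70 points. Between the libraries of a genotype (library 2 minus library 1), chr19 differed from the other chromosomes by −0.0926 points in parental cells and by −0.275 points in KO1 cells.

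The difference was larger among weak shared regions. The median KO1 minus parental percentile was −7.39 on chr19 for regions below a mean percentile of 40 and −1.31 for those from 40 upward, and elsewhere −1.77 and −0.319. In the weakest quintile, both KO1 libraries stood above both parental ones at 1 of 42 regions (2.38%) and below them at 14 (33.3%). On the other chromosomes these shares were 16.5% and 21.96%. In the strongest quintile, where the median was −0.127, the KO1 libraries stood above at 56 of 362 (15.5%) and below at 75 (20.7%). There the other chromosomes had 19.1% above and 20.6% below, so the share below was close to that elsewhere.

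Single shared regions moved further than the median, in both directions. The largest gain in KO1 cells was at chr19:43974088-43974617, with percentiles of 16.3 and 23.99 in parental libraries 1 and 2 and 69.7 and 61.4 in KO1 libraries 1 and 2. The genotypes were well apart there (20.1 ± 5.45 and 65.5 ± 5.89, difference 45.4 points). However, the summit of parental library 2 lay at 43974088 and those of the other libraries at 43974573 to 43974617, so the joined summits may not mark 1 peak. At chr19:8063207-8063245 the values were 8.04 and 52.2 in parental cells and 62.7 and 87.2 in KO1 cells, so that the parental libraries differed from each other by nearly as much as the genotypes did. At chr19:56154594-56154977 they were 8.68 and 9.16, then 41.7 and 57.6. The summits there lay at 56154612 and 56154912 in the parental libraries and at 56154977 and 56154594 in the KO1 libraries. These joined summits may not mark 1 peak either.

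The largest losses were of regions of middling to high rank in parental cells. At chr19:56182025-56182325 the percentiles were 82.8 and 64.6 in parental libraries 1 and 2 and 16.1 and 17.6 in KO1 libraries 1 and 2, a difference of −56.9 points. At chr19:48836772-48837331 they were 59.7 and 72.8, then 18.7 and 8.06. At chr19:39166958-39167214 they were 77.3 and 75.1, then 33.6 and 15.5. In the region chr19:48836772-48837331 the summit of KO1 library 2 lay at 48837331 and those of the other libraries at 48836772 to 48836842, so these too may not mark 1 peak. The same limit applies at chr19:56182025-56182325, where the KO1 summits lay at 56182325 and 56182025. It also applies at chr19:39166958-39167214, with parental summits at 39166958 and 39167009 and KO1 summits at 39167214 and 39167160. These 6 regions were picked for their differences, so no test is given for them, and they lie at the ends of 1268 values.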

How the data were processed

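LSD1 CUT&RUN was analysed in MDA-MB-231 cells, with 2 parental and 2 RCOR2-KO1 libraries. Per the labels and the submitters' processing notes, the tools were FastQC 0.11.2, Bowtie2 2.3.3.1, Picard and MACS2 2.1.0 with build hg19, and size-selected libraries were sequenced. The authors called peaks per library against normal rabbit IgG and deposited 1 summit per peak with its −log10 value from the peak caller; whether this is of p or of q is not given in the sources used here. No read counts were used, so no counting interval is given.

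The software was pandas 2.3.3, numpy 2.4.6 and matplotlib 3.10.9 under Python 3.11.15. Percentiles were ranks of the −log10 value within a list, 100 being the strongest. Joining used a distance of at most 500 bp, with the zinc finger clusters as a set of their own. Lengths of hg19 chromosomes were entered by hand. RefSeq (GRCh38.p14) gave numbers of genes and promoter GC per chromosome and no coordinates. Shares of regions of 1 genotype are over these regions and those of all 4 lists. Genotypes were compared over libraries by the two-sided exact permutation test. Steps were checked on simulated lists.

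The regions named are the 5 strongest shared, the 5 strongest parental-only and KO1-only, the 3 with the largest difference each way among those where genotypes did not overlap, the 3 bins of 1 Mb with most regions and the longest empty stretch. The 3 regions with most summits were also to be named, but many regions tie at 4. The chromosome and the lists were chosen with earlier results of these data known. Alternatives were joining distances of 250 and 1000 bp, the upper 50% of each list, lists shortened to 1 length, the clusters kept, each library left out, other density and upper-share definitions, percentiles over shared regions, and the replicate number as a block. Same-numbered libraries did not deviate together (r = 0.0205 between the replicate differences of the genotypes over 1268 regions), so the numbers were not taken to pair them.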

Additional observations from a re-analysis of the deposited data

How the results depend on the processing

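No recomputed genotype difference, density ratio or excess of the median percentile over the whole chr19 set changed direction. Counts and shares of regions of 1 genotype were checked only for size. The parental-only share, higher on chr19 than elsewhere as reported (7.98% against 7.45%), was slightly lower in the upper 50% of each list (8.84% against 8.93%). Of the single regions, the KO1 minus parental difference at chr19:13147645-13147745 went from −0.124 to 0.0115 points without KO1 library 1, and at chr19:16272243-16272448 from −0.0648 to 0.0395 without parental library 2 and 0.0722 without KO1 library 2. The tied regions starting at 290212 and 342913 went from −2.80 to 1.40 without KO1 library 2 and from −6.80 to 6.13 without KO1 library 1. Shares of regions of 1 genotype depended most on the setting. Parental-only regions made up 7.98% of the chr19 set as reported, 10.2% with joining at 250 bp, 6.35% when no summit of the other genotype was allowed within 2 kb, and 12.6% to 22.3% with 1 library left out, where presence in a single list suffices for 1 genotype. KO1-only regions made up 2.84% as reported, 4.93% at 250 bp, 4.49% in the upper 50% of each list, 4.04% with lists cut to the shortest, 1.93% with the 2 kb rule, and 4.75% to 9.40% with 1 library left out. The density relative to other chromosomes, averaged over libraries, was 2.03 ± 0.107 as reported (SD, n = 4 libraries), 2.17 in the upper 50%, 1.90 with the zinc finger clusters kept and 1.87 over bins that held a region. The upper 50% left 1252 regions by construction and raised the excess of the median percentile from 3.71 ± 1.19 to 5.66 points. Of 72 recomputed values, the 53 others are genotype differences that kept their direction, or values that moved by less than the spread between libraries, the 95% binomial interval of the share or 1.5 times the count. The 2 kb rule and a restriction to mean percentiles of at least 50, where the median difference over shared regions was −1.11, were chosen after seeing the data. Joining at 1000 bp, keeping the clusters or ranking over shared regions alone gave a median difference of −2.12, −2.42 and −1.81 and left no overlap of the genotypes (p = 0.333 in the exact permutation test, the smallest possible).

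With the replicate number as a block, the difference in share of summits was −0.308 points and the median difference over shared regions −1.96, equal to the unblocked values by construction.

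Sequencing depth and peak widths are unknown here, so absence from a list cannot be told apart from a signal below that list's threshold. With 2 libraries per genotype, 0.333 is the smallest p of the exact permutation test.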

Other observations

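The zinc finger clusters left out of the set differed from the rest of chr19 in several measures. Their 88 regions lay at 14.4 per Mb, against 44.9 on the rest of the chromosome, and 70 of them (79.5%) were found in all 4 lists, against 53.3%. KO1-only regions numbered 0 of 70 and parental-only regions 1 of 71. The median percentile of their summits was 64.2 and 61.4 in parental libraries 1 and 2 and 52.1 and 53.4 in KO1 libraries 1 and 2, so that both KO1 libraries lay below both parental ones, the opposite order to that on the rest of the chromosome. Over the 70 shared cluster regions the median KO1 minus parental percentile was −9.46. Over the shared regions of the rest of the chromosome it was −1.96, so by this measure both went the same way.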
